A study of Mus musculus with 6 samples.

Results

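Tubulins are the building blocks of microtubules. Alpha and beta tubulin pair into dimers that polymerise into the spindle, the cytoskeleton of the dividing cell and the shafts of axons, and mammals encode each partner in several genes, the isotypes, whose proteins differ most at the acidic carboxy-terminal tail. Tubb3, class III beta tubulin, is best known as a marker of neurons, whereas Tubb5 and Tuba1b are made in most dividing cells. The 9 isotype genes described here are the beta tubulins Tubb3, Tubb2a, Tubb2b, Tubb5 and Tubb6 and the alpha tubulins Tuba1a, Tuba1b, Tuba1c and Tuba4a, taken by gene symbol from the 20325 genes of the deposited tables. All 9 were found and all 9 passed the filter on low counts. They were selected on their expected counts and TPM in this comparison, whose results were already known, so their differences between populations, and whether a fit called them, are given as a description with no p-value.

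The cells were neural stem cells from mice at postnatal day 4 of a mixed 129/Black 6 background. In every sample the animals were homozygous for Stemcca, a doxycycline-inducible cassette of Oct4, Sox2, c-Myc and Klf4 at ColA1, and heterozygous for the reverse tetracycline transactivator (rtta) at Rosa26. Both populations had been induced with doxycycline until day 7, were fixed, and were sorted as Nanog+E-cadherin+ (n = 3) or Nanog+E-cadherin- (n = 3), with no uninduced sample among them. Nanog is a pluripotency factor and E-cadherin (Cdh1) an epithelial adhesion protein, and the study used them to follow cells on different routes toward induced pluripotency.

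Total expected counts ran from 8851110 to 39630916 per library, and the least counted of the 9 genes in any library still had an expected count of 211.5, a counting error of 6.88%. Libraries of the same replicate number resembled each other, so each result is also given within replicate numbers, called pairs below. Whether a replicate is a culture or an animal of its own is not in the labels, so p-values and SDs describe the spread of these 6 samples alone. Cdh1 mRNA matched the sort, at 104 to 143 CPM (counts per library size, scaled by TMM) against 15.4 to 20.3 CPM, and Nanog mRNA overlapped between populations, at 101.0 to 131.2 against 78.6 to 135.2 CPM. Nanog+E-cadherin- replicates 2 and 3 stand apart: 1447 olfactory and vomeronasal receptor genes, which are silent outside sensory neurons, summed to 1886 and 1215 CPM of library totals there and to between 31.9 and 155 CPM in the other 4 libraries (receptor signal below). The receptor genes above 0 numbered 249 and 113 in those libraries and 37 to 296 in the others, and the source of the signal was not tested. The pair numbered 1 holds neither of these libraries. In bulk RNA, fewer cells of a type and less RNA per cell cannot be told apart.

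Tubulin genes resemble each other, and that decides which of them can be read alone. RSEM splits a read among all genes it matches, so the share of a transcript that is identical elsewhere matters. With GENCODE vM21 transcripts cut into stretches of 50 bases, no stretch of Tubb3 or Tubb6 occurred in a transcript of another gene, and 0.12% of those of Tubb5 did. Tubb2a shared 45.6% of its stretches, and Tubb2b 33.4%, in both cases with each other. The 3 Tuba1 genes shared most of theirs, at 55.5% for Tuba1a, 67.0% for Tuba1b and 59.8% for Tuba1c. For Tuba4a 28.8% matched Stk16, a kinase gene that overlaps it on the opposite strand. Neither read length nor use of strand is stated in the labels or headers. At 36 bases 1.80% of the stretches of Tubb3 were shared. By exact matches Tubb3, Tubb5 and Tubb6 could thus be counted apart, though near matches were not examined. Values within Tubb2a and Tubb2b, within the Tuba1 genes and of Tuba4a depend on how reads were divided.

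The separation of Tubb3 from the ubiquitous Tubb5 shows in the coding sequence. The genes were 81.2% identical over the aligned coding sequence, against 96.5% for Tubb2a with Tubb2b, 98.3% for Tuba1a with Tuba1b and 97.9% for Tuba1b with Tuba1c. This distance is not particular to Tubb3, as Tubb5 was 80.2% identical to Tubb6, 83.9% to Tubb2b and 84.5% to Tubb2a. The last 60 coding bases with the stop codon, which encode the isotype-specific tail, are shown 5′ to 3′ from GENCODE vM21, with bases that do not match Tubb5 in the alignment in capitals.
Tubb5: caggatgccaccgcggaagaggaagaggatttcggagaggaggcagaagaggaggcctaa
Tubb3: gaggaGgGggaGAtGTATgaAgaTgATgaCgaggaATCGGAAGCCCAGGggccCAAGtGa
Tubb2a: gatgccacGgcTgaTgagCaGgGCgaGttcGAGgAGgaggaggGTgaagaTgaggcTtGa
Tubb2b: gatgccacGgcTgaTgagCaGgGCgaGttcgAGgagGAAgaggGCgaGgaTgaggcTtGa
Of these 60 bases 32 did not match in Tubb3, compared with 18 in Tubb2a and 19 in Tubb2b. Bases set against a gap in Tubb5 count as not matching, so these are not counts of substitutions alone. The coding sequence was 1353 bases long in Tubb3, 1338 in Tubb2a and in Tubb2b, and 1335 in Tubb5.

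Tubb3 was the only one of the 9 genes that was lower with E-cadherin in every pair. Its level was 342.4, 78.5 and 31.1 CPM in replicates 1 to 3 with E-cadherin and 631.6, 248.8 and 75.5 CPM in those without it. Both libraries numbered 1 were the highest of their population and both numbered 3 the lowest, and the populations overlapped. Within a population Tubb3 spanned 11.01-fold with E-cadherin and 8.37-fold without, a wider range than that of any other of the 9 genes, the next widest being 3.57-fold for Tubb2b without E-cadherin.

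Within pairs Tubb3 was lower in Nanog+E-cadherin+ cells by 1.85-fold, 3.17-fold and 2.43-fold for the numbers 1, 2 and 3. Among all 13460 genes tested, 17.3% were lower in all 3 pairs. The fitted log2 fold change, always E-cadherin+ over E-cadherin-, was -1.08 ± 0.98 (SE) with population as the only term and -1.27 ± 0.17 (SE) with replicate number as a blocking term, which corresponds to a 2.42-fold lower level. Tubb3 was among the genes called in edgeR's blocked fit, which called 0.305% of all genes and 0.0892% as lower, and it was not among those called without the block, which numbered 0 of 13460, with 2.67% at an unadjusted p under 0.05. Since the choice of members used this contrast, the call is given as a description. With the pair numbered 1 left out the blocked log2 fold change was -1.46, without the pair numbered 2 it was -1.07 and without the pair numbered 3 it was -1.26. With population as the only term, dropping 1 library unbalances the pairs, and the value was then -2.55 without Nanog+E-cadherin+ replicate 1, -0.57 when the same population lacked replicate 3, and -0.09 without Nanog+E-cadherin- replicate 1.

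**Figure D1:**
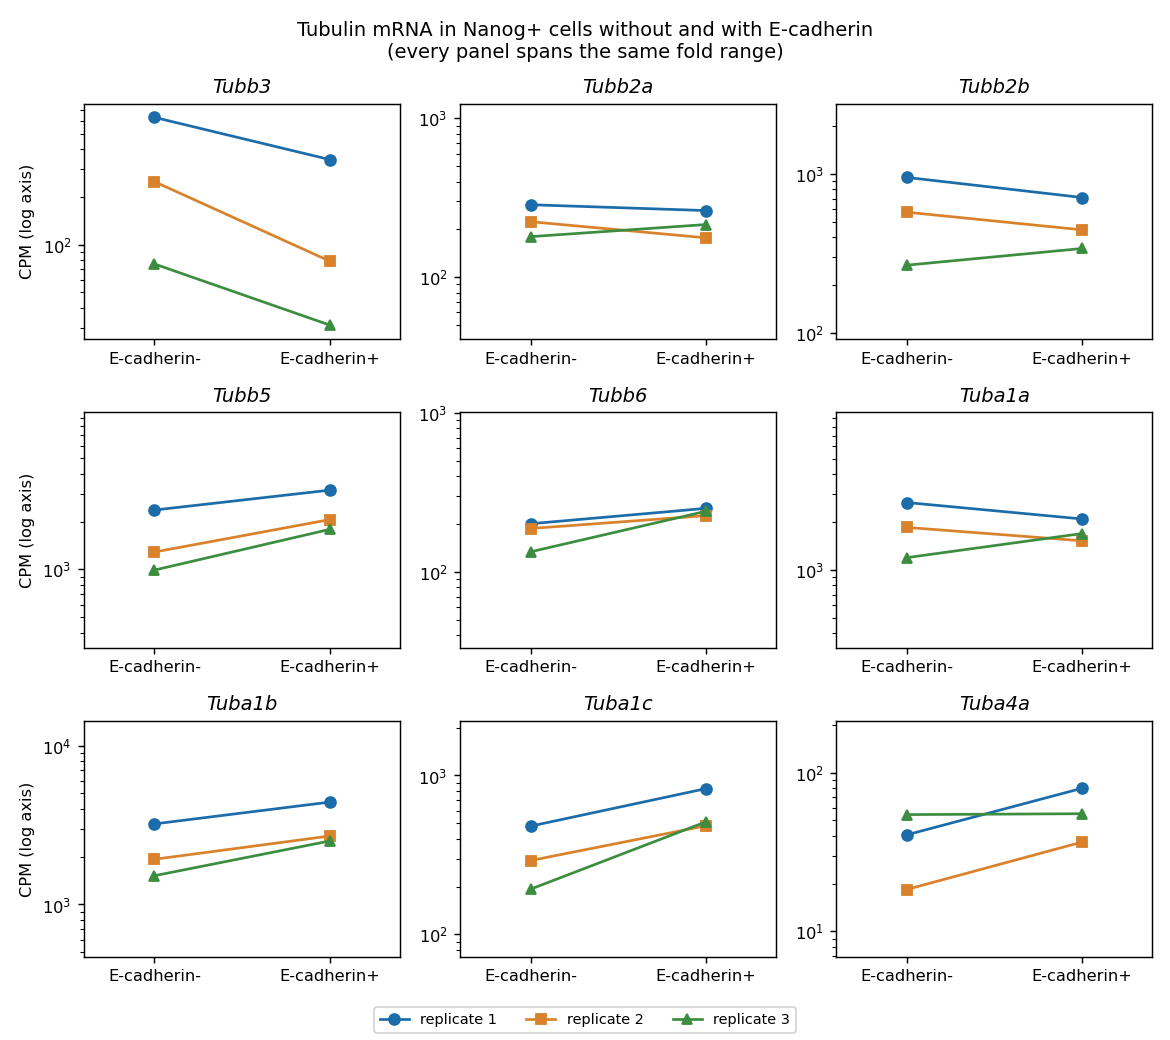
CPM (log axis, scaled by TMM) of the 9 tubulin genes in E-cadherin- and E-cadherin+ libraries, with lines joining libraries of the same replicate number and the same fold range in every panel. The 3 Tubb3 lines slope down toward E-cadherin+ and lie far apart, whereas those of Tubb5, Tubb6, Tuba1b and Tuba1c slope up.

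Tubb5, the main beta tubulin of dividing cells, was higher with E-cadherin in every pair. It stood at 3153, 2058 and 1787 CPM in replicates 1 to 3 with E-cadherin and at 2362, 1285 and 990 CPM in those without it. On the CPM scale the populations overlapped, since Nanog+E-cadherin- replicate 1 lay above Nanog+E-cadherin+ replicates 2 and 3. On TPM, a scale that corrects for transcript length and sums to the same total in each library, they did not, at 1319 to 1666 against 846 to 1249 TPM. Within pairs the difference was 1.34-fold, 1.60-fold and 1.81-fold, and the log2 fold change was 0.59 ± 0.42 (SE) without and 0.65 ± 0.12 (SE) with the block.

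Tubb6, a beta tubulin made at low levels in many tissues, did not overlap between populations by CPM, though it did by TPM (190.0 to 280.4 against 162.9 to 231.6 TPM). It stood at 251.3, 226.1 and 241.1 CPM against 201.0, 187.6 and 133.8 CPM for replicates 1 to 3. The Nanog+E-cadherin+ libraries were the most alike of any of the 9 genes in either population, within 1.11-fold. Its log2 fold change was 0.46 ± 0.23 (SE) without and 0.48 ± 0.16 (SE) with the block, and the within-pair difference was 1.25-fold, 1.21-fold and 1.80-fold.

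Tubb2a and Tubb2b, beta tubulins abundant in the developing brain, showed no common direction. Tubb2a stood at 262.7, 176.9 and 214.6 CPM with E-cadherin and at 285.9, 223.6 and 180.0 CPM without it. Tubb2b stood at 712.0, 445.4 and 340.1 CPM with E-cadherin and at 952.9, 575.8 and 267.0 CPM without it. Both were lower with E-cadherin in the pairs numbered 1 and 2 and higher in the pair numbered 3. The blocked log2 fold changes were -0.07 ± 0.15 for Tubb2a and -0.15 ± 0.17 for Tubb2b (SE). Summing both genes, which removes the division of reads between them, left the pattern as it was: the log2 ratios were -0.35, -0.36 and 0.31 in the pairs numbered 1 to 3.

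Among the alpha tubulins, Tuba1b and Tuba1c were higher with E-cadherin in every pair, whereas Tuba1a, the alpha tubulin most abundant in young neurons, was not. Tuba1b stood at 4411, 2698 and 2512 CPM in replicates 1 to 3 with E-cadherin and at 3214, 1925 and 1517 CPM in those without it. Tuba1c stood at 827.2, 482.6 and 511.3 CPM against 479.8, 291.5 and 192.5 CPM. For Tuba1b the populations overlapped by CPM and not by TPM, at 3186 to 3751 against 2229 to 2920 TPM. For Tuba1c every Nanog+E-cadherin+ library lay above every Nanog+E-cadherin- library, by a narrow margin between 482.6 and 479.8 CPM and a wider one by TPM, between 508.5 and 341.8.

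The blocked log2 fold changes were 0.56 ± 0.11 for Tuba1b and 0.97 ± 0.16 for Tuba1c (SE), the latter a 1.96-fold difference and the highest fitted value among the 9 genes. Tuba1a stood at 2097, 1528 and 1698 CPM with E-cadherin and at 2662, 1857 and 1197 CPM without it. Like Tubb2a and Tubb2b, Tuba1a was lower with E-cadherin in the pairs numbered 1 and 2 and higher in the pair numbered 3, and its blocked log2 fold change was -0.04 ± 0.17 (SE). The sum of the 3 Tuba1 genes, which does not depend on how their shared reads were divided, was higher in every pair, by 1.15-fold, 1.16-fold and 1.62-fold.

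Tuba4a, an alpha tubulin whose mRNA ends without the codon for the terminal tyrosine of other alpha tubulins, was the least abundant of the 9. It stood at 79.7, 36.5 and 55.1 CPM with E-cadherin and at 40.5, 18.4 and 54.4 CPM without it. The level was close to 2-fold higher in the pairs numbered 1 and 2, at 1.97-fold and 1.99-fold. In the pair numbered 3 it was 1.01-fold, and this ratio lay below 1 on the scales of TPM and of library totals. The blocked log2 fold change was 0.66 ± 0.24 (SE), and part of these counts may belong to Stk16.

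In all, 5 of the 9 genes were higher in all 3 pairs (4 by TPM or library totals, without Tuba4a), against 18.9% of all genes tested. Without overlap between populations by CPM, 2 of the 9, Tubb6 and Tuba1c, were higher and 0 lower, against 3.74% and 3.25% of all genes, or 6.99% in either direction. By TPM 3 of the 9, Tubb5, Tuba1b and Tuba1c, were higher without overlap and 0 lower, against 3.19% and 1.51% of all genes. The rule used this contrast, so nothing is read from these shares. With population alone as a term and at least 2 libraries per group, 0 of the 9 was called in any setting. These settings called at most 17 of all genes. Without both libraries of high receptor signal, which also unbalances the pairs, the group-only log2 fold changes were -2.07 for Tubb3, -0.02 for Tubb5, -0.01 for Tuba1b and 0.34 for Tuba1c. The pair numbered 1 alone, free of those libraries and balanced, gave -0.88, 0.42, 0.46 and 0.79 for the same genes.

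**Figure D2:**
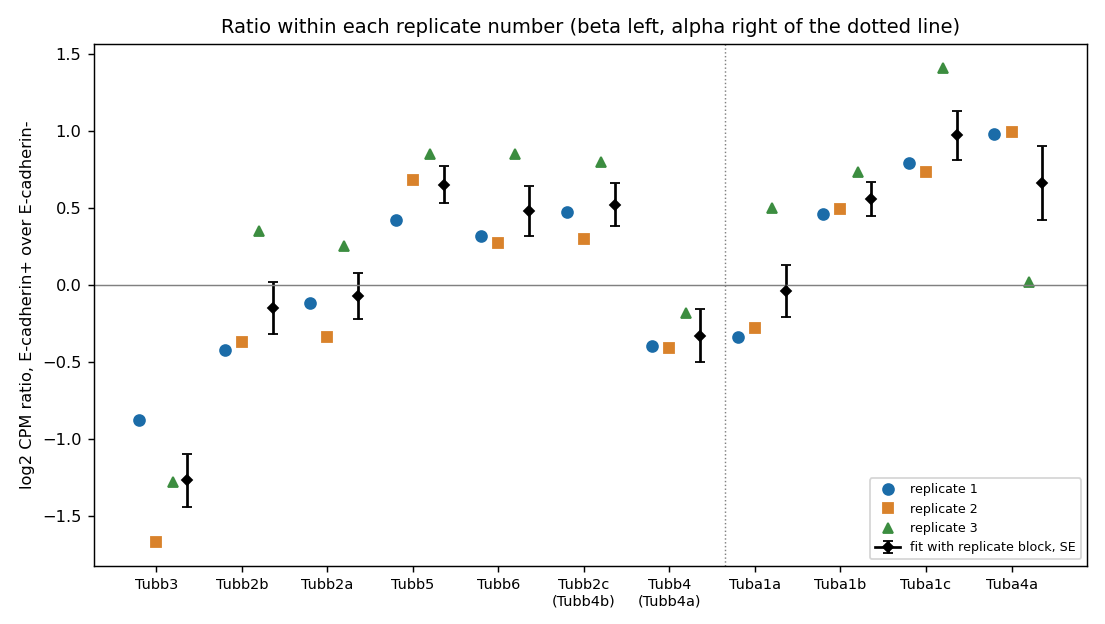
Log2 CPM ratio, E-cadherin+ over E-cadherin-, within each replicate number (coloured symbols) and the estimate of the blocked fit with its SE (black), for the beta tubulins left and the alpha tubulins right of the dotted line. Tubb3 lies lowest at -1.27, and the ratios of Tubb2a, Tubb2b and Tuba1a cross 0 between pairs.

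With Tubb3 lower and Tubb5 higher in every pair, the make-up of beta tubulin mRNA differed as well. Summed over 8 beta tubulin genes on the TPM scale, which allows comparison between genes, Tubb3 made up 7.27%, 2.72% and 1.12% in replicates 1 to 3 with E-cadherin and 14.4%, 9.63% and 4.26% in those without it. The mean share was 3.70% ± 3.19 with E-cadherin and 9.44% ± 5.08 without it (SD, n = 3 each). Within pairs the difference in share, with minus without E-cadherin, was -7.15, -6.91 and -3.14 percentage points, while across pairs the populations overlapped.

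Tubb5 made up 43.6% ± 2.23 of beta tubulin TPM with E-cadherin and 34.3% ± 2.02 without it (SD, n = 3 each), with no overlap between libraries. Relative to Tubb5, Tubb3 TPM amounted to 16.9%, 5.92% and 2.70% with E-cadherin and to 41.5%, 30.1% and 11.8% without it. Tubb2b made up 12.8% ± 1.55 against 17.6% ± 3.59, and Tubb2a 6.97% ± 1.22 against 9.08% ± 1.97 (SD, n = 3 each). Both shares were smaller with E-cadherin in all 3 pairs, though their levels were not. A share also depends on the other genes of the sum. In the pair numbered 3 the log2 TPM ratios were 0.04 for Tubb2a and 0.14 for Tubb2b, beside 0.43 for summed beta tubulin. Tubb6 made up 7.20% ± 1.73 against 6.39% ± 1.62 (SD, n = 3 each).

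Among the alpha tubulins, Tuba1c took 8.65% ± 0.41 of the summed TPM with E-cadherin and 5.67% ± 0.40 without it (SD, n = 3 each). Tuba1b took 58.1% ± 3.57 against 50.8% ± 2.28 and Tuba1a 32.4% ± 3.70 against 42.8% ± 2.58 (SD, n = 3 each). For each of these 3 genes the libraries of both populations did not overlap, and these shares depend on how shared reads were divided. Tuba4a stayed below 1.5% in every library.

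Alpha and beta tubulin mRNA together were 0.958% ± 0.051 of all TPM with E-cadherin and 0.820% ± 0.142 without it (SD, n = 3 each), and the populations overlapped. The ratio of alpha to beta TPM was 1.69, 1.77 and 1.85 in replicates 1 to 3 with E-cadherin and 1.58, 1.71 and 1.80 in those without it. The ratio was higher with E-cadherin in each pair, by 0.10, 0.05 and 0.04 on the log2 scale, and overlapped across populations, at 1.77 ± 0.081 against 1.69 ± 0.115 (SD, n = 3 each).

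**Figure D3:**
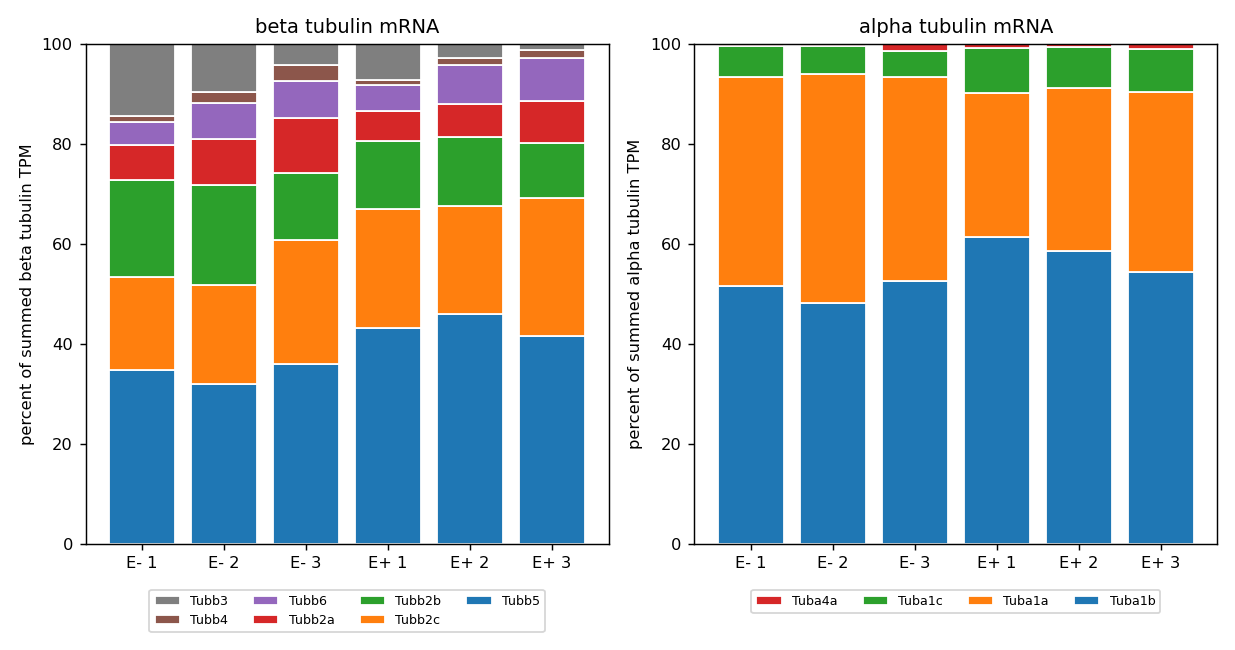
Percent of summed beta (left) and alpha (right) tubulin TPM taken by each gene in each library, with E- and E+ for cells without and with E-cadherin, followed by the replicate number. Tubb3 (grey, top left) takes 4.26% to 14.4% without and 1.12% to 7.27% with E-cadherin, and Tubb5 (blue, bottom left) takes more with E-cadherin in every library.

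The order of levels by TPM was led by Tuba1b, Tuba1a and Tubb5 in both populations. With E-cadherin the means were 3558 ± 322.5 TPM for Tuba1b, 1980 ± 206.0 for Tuba1a and 1513 ± 177 for Tubb5 (SD, n = 3), and the ranges of these 3 did not overlap. Tuba1c (528 ± 20.7 TPM) and Tubb2b (445 ± 84.1 TPM) followed, also without overlap between neighbours. Tubb6 (248 ± 50.2 TPM), Tubb2a (239.7 ± 24.1 TPM), Tubb3 (132 ± 117 TPM) and Tuba4a (47.3 ± 7.85 TPM) came last, each overlapping its neighbour in the order.

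Without E-cadherin Tuba1b (2604 ± 349 TPM) and Tuba1a (2206 ± 423 TPM) overlapped, and Tubb5 followed at 1043 ± 201 TPM (SD, n = 3). Tubb3 had rank 5 there, at 309.8 ± 209 TPM, behind Tubb2b (553 ± 206 TPM) and beside Tuba1c (293 ± 63.2 TPM), and these 3 genes overlapped with their neighbours, Tuba1c also with Tubb2a (269.8 ± 26.6 TPM). Tubb6 (190.0 ± 36.6 TPM) and Tuba4a (35.7 ± 21.7 TPM) came last, without overlap. Tubb3 thus stood 1 gene above the end of the order with E-cadherin and in its middle without it, but with a spread that covers several ranks.

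The other tubulins were not used to choose the 9 genes and were tested. Of 11 listed, 6 passed the filter on low counts. Of these, 0 passed edgeR's quasi-likelihood test, adjusted by Benjamini and Hochberg's method, in either fit. At an unadjusted p under 0.05 there were 0 without the block and 1 with it, beside 2.67% and 10.7% of all genes tested. Tubb2c, an older symbol for the ubiquitous beta tubulin Tubb4b, stood at 1046, 579 and 708 CPM with E-cadherin and at 755, 472 and 406.5 CPM without it, higher in every pair, with an overlap that is absent by TPM. Its blocked log2 fold change was 0.52 ± 0.14 (SE; adjusted p = 0.236 in edgeR's test), close in value to that of Tuba1b. Tubb4, an older symbol for the brain-enriched Tubb4a, had the reverse direction, at 55.3, 56.0 and 62.7 CPM against 73.2, 74.2 and 71.1 CPM. These libraries did not overlap by CPM but did by TPM (32.5 to 55.1 against 46.1 to 72.4 TPM), and the blocked log2 fold change was -0.33 ± 0.17 (SE; adjusted p = 0.522 in edgeR's test).

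Among tubulins outside the dimer, Tubg1, the gamma tubulin that nucleates microtubules, stood at 155 ± 39.6 CPM with E-cadherin and 129 ± 47.6 CPM without it (SD, n = 3 each; blocked log2 fold change 0.30 ± 0.14, SE). Tubg2, the other gamma tubulin, stood at 8.71 to 10.5 CPM, with a blocked log2 fold change of -0.02 ± 0.33 (SE). The centriolar delta and epsilon tubulins Tubd1 and Tube1 had blocked log2 fold changes of 0.51 ± 0.30 and 1.01 ± 0.69 (SE), and Tube1 was at 0.63 CPM in Nanog+E-cadherin- replicate 3, its lowest library. Tubb1, the platelet beta tubulin, and the alpha tubulins Tuba3a, Tuba3b, Tuba8 and Tubal3, of testis and other tissues, were below the filter.

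Tubulin needs help to fold: prefoldin passes the nascent chain to the CCT chaperonin, and the cofactors Tbca to Tbce with Arl2 assemble the dimer. Of 21 folding genes tested, 0 passed in either edgeR fit. At an unadjusted p under 0.05 there were 0 without the block and 1 with it, beside 2.67% and 10.7% of all genes tested. The blocked median log2 fold change was 0.14, beside 0.02 over all genes, with 12 fitted higher and 9 lower. In all 3 pairs 5 were higher and 3 lower, where 18.9% and 17.3% of all genes tested were. With population as the only term the median was 0.10, but leaving out Nanog+E-cadherin+ replicate 1 gave -0.21 and leaving out Nanog+E-cadherin- replicate 3 gave -0.02, and it was -0.29 without both libraries of high receptor signal. For the 9 CCT subunits the blocked values lay between -0.55 and 0.22, for the 5 prefoldin subunits between -0.32 and 0.24 and for the 6 cofactor genes between -0.26 and 0.28. The 3 genes of smallest p were Ttc5, Pfdn2 and Pfdn5. The prefoldin subunits Pfdn2 and Pfdn5 had blocked log2 fold changes of -0.32 ± 0.18 and 0.24 ± 0.15 (SE).

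Ttc5 encodes the factor that binds nascent tubulin at its amino terminus and triggers decay of the mRNA when free dimers are in excess. It stood at 74.6 ± 22.5 CPM with E-cadherin and at 106.5 ± 12.8 CPM without it (SD, n = 3 each). The blocked log2 fold change was -0.55 ± 0.18 (SE; adjusted p = 0.341 in edgeR's test), so the difference did not pass. The bases that encode the recognised amino terminus are shown in capitals at the start of the coding sequence (5′ to 3′, GENCODE vM21), to let the genes be set side by side.
Tubb3: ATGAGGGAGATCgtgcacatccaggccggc
Tubb5: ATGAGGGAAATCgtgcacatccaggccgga
Tuba1a: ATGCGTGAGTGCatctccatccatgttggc
Tuba1b: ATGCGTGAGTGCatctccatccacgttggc
Tuba1c: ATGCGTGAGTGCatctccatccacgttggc
The 30 bases shown of Tuba1b and Tuba1c are the same letters.

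Enzymes that modify tubulin after it is built, by acetylation, detyrosination, glutamylation or glycylation, showed no call either. Of 23 genes tested, 0 passed in either edgeR fit. At an unadjusted p under 0.05 there were 0 without the block and 1 with it, beside 2.67% and 10.7% of all genes tested. The blocked median log2 fold change was -0.35, beside 0.02 over all genes, with 16 fitted lower and 7 higher. In all 3 pairs 10 were lower and 1 higher, where 17.3% and 18.9% of all genes tested were. The blocked median was -0.28, -0.22 and -0.26 without the pair numbered 1, 2 and 3. With population as the only term it was -0.35 in edgeR and -0.11 in limma-voom, where 11 were fitted higher and 12 lower, and in edgeR -0.10 when Nanog+E-cadherin+ replicate 1 was dropped, -0.17 or -0.15 when Nanog+E-cadherin- replicate 2 or 3 was. Without both libraries of high receptor signal, which unbalances the pairs, the median was 0.28 with 18 fitted higher. The 3 genes of smallest p were Vash1, Atat1 and Vash2. Vash1 and Vash2, carboxypeptidases that remove the terminal tyrosine of alpha tubulin, had blocked log2 fold changes of -0.39 ± 0.17 and -0.54 ± 0.26 (SE). The alpha tubulin acetyltransferase Atat1 stood at 38.3 ± 5.67 against 50.4 ± 5.68 CPM (SD, n = 3 each), with a blocked log2 fold change of -0.40 ± 0.18 (SE; adjusted p = 0.476 in edgeR's test).

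**Figure D4:**
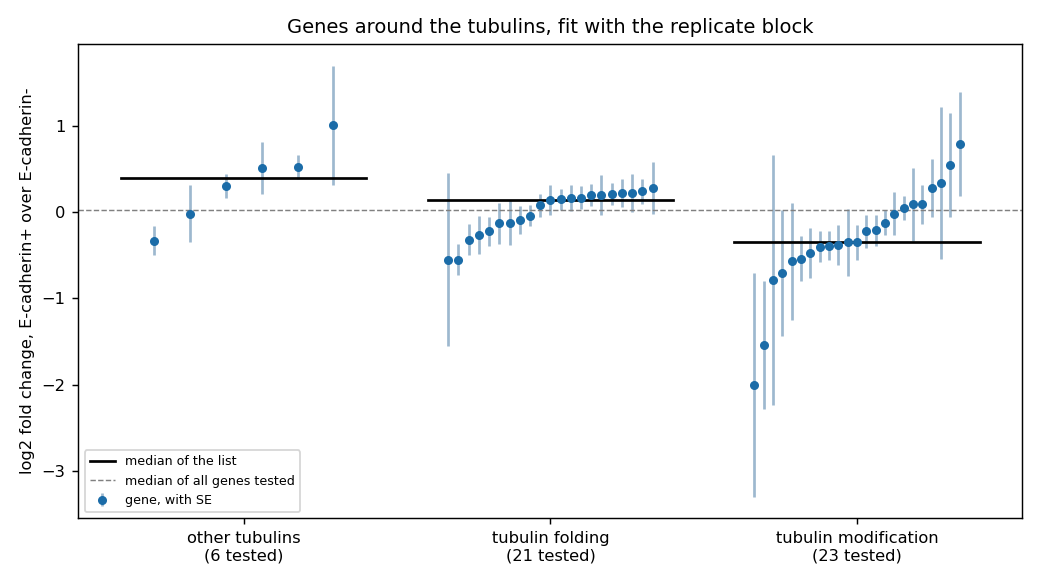
Log2 fold change (E-cadherin+ over E-cadherin-) with SE from the blocked fit for every tested gene among other tubulins, tubulin folding genes and tubulin modifying enzymes, with the list median (black) and the median of all genes tested (dashed). Folding genes lie near 0 with a median of 0.14, and modifying enzymes have a median of -0.35 and wide errors at both ends.

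Genes whose profile over the 6 libraries was most like that of Tubb3 were sought among 11096 genes of at least 5 CPM on average, by the mean absolute difference of centred log2 CPM. This is a description over 6 libraries that also share replicate numbers and depth. The 8 nearest were Dbx1, Ak4, Crmp1, Neurog1, Tub, Cdk5r2, Sost and Doc2a, at mean differences of 0.42 to 0.54. Dbx1 and Neurog1 are transcription factors of neural progenitors, Crmp1 a cytoskeletal protein of growing axons, Cdk5r2 an activator of the neuronal kinase Cdk5, and Doc2a a calcium sensor of synaptic release. Ak4 is a mitochondrial adenylate kinase and Sost a secreted Wnt antagonist of bone. Dbx1, the nearest, stood at 95.4, 24.9 and 3.86 CPM with E-cadherin and at 203.6, 45.02 and 19.1 CPM without it. As with Tubb3, the libraries numbered 1 were highest in each population, and Dbx1 was lower with E-cadherin in every pair.

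**Figure D5:**
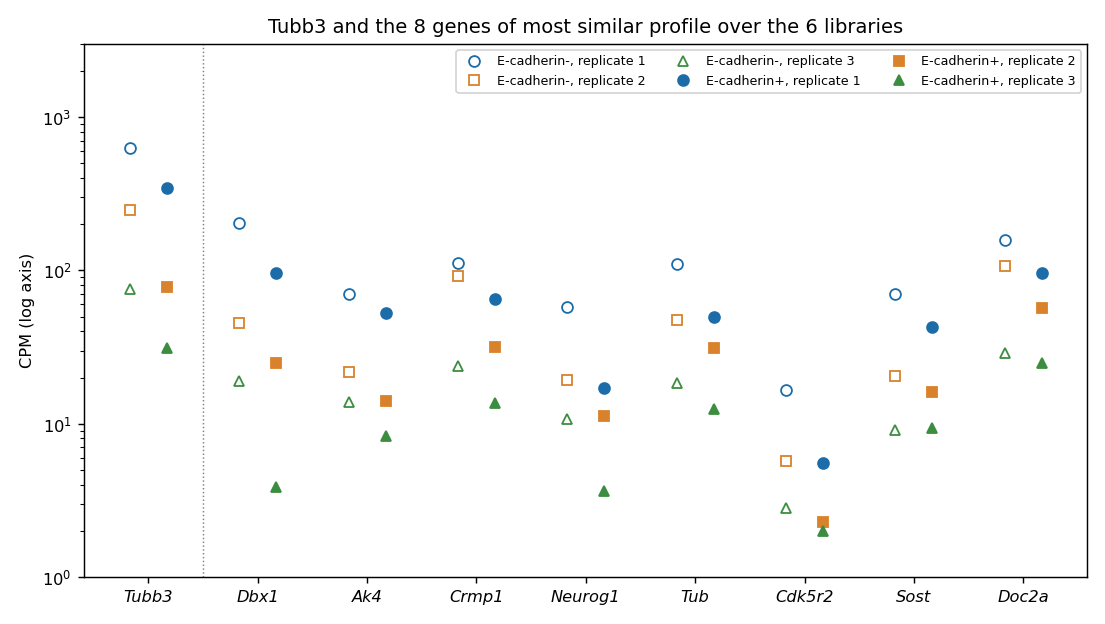
CPM (log axis) of Tubb3 and of the 8 genes nearest to it in profile, with open symbols for E-cadherin- and filled symbols for E-cadherin+ libraries and 1 colour and shape per replicate number. In each gene the library numbered 1 is the highest of its population, and in Dbx1 they reach 203.6 CPM without and 95.4 CPM with E-cadherin.

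Of the 9 genes, Tubb5 and Tuba1b were nearest to each other, at a mean difference of 0.065, followed by Tubb2a with Tuba1a at 0.112 and Tubb5 with Tuba1c at 0.162. The nearest partner of Tubb3 among them was Tubb2b, at 0.819. Genes nearest to Tubb5 were Chaf1b, which loads histones onto new DNA, the nuclear pore gene Nup85 and the histone acetyltransferase Hat1 (0.052 to 0.062). Tuba1b was nearest to Nup85, the replication protein Rpa2 and Plp2, and Tuba1c to Fam100b, Nup35 and Cdca5, the last of which holds sister chromatids together (0.049 to 0.068). Tubb6 was nearest to Ap2a2, D1Bwg0212e and Ppp1r2 (0.035 to 0.053), and Tuba4a to Oip5, Acy3 and Traip (0.129 to 0.178). Tubb2a was nearest to D17Wsu104e, Idh3g and Dnajb9, Tubb2b to Ddx25, Ccdc115 and Pdxp, and Tuba1a to Hmha1, 5133401N09Rik and Atf5 (0.029 to 0.127 over these).

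Neuron markers differed among themselves in direction. Of 12 neuron markers 11 were found. Sums of markers, here and below, are CPM of library totals, without the TMM scaling used for single genes. The neuron markers summed to 123.0 to 469 CPM with E-cadherin and 143.5 to 476 CPM without it, with the libraries numbered 1 highest in both. Of 10 tested, 7 were fitted lower and 3 higher with E-cadherin, 5 were lower in all 3 pairs (17.3% of all genes were) and 1 higher (18.9%), 0 was called, and the blocked median log2 fold change was -0.69. Dcx, a microtubule-binding protein of young neurons, stood at 7.82, 7.42 and 2.05 CPM against 25.2, 10.5 and 11.7 CPM, without overlap. Stmn2, a tubulin-binding protein of neurons that makes up most of the sum, stood at 464.7, 78.5 and 92.7 CPM against 391.7, 84.9 and 95.1 CPM and had a blocked log2 fold change of 0.03 ± 0.14 (SE). Nefl, a neurofilament gene, was higher with E-cadherin in all 3 pairs, with a blocked log2 fold change of 1.4 ± 1.0 (SE). Gap43, of growing axons, was fitted at 0.65 ± 0.54 (SE), with log2 ratios of -0.19, -0.03 and 2.86 in the pairs numbered 1 to 3. Besides Dcx, the markers lower in all 3 pairs were Snap25, Syp, Elavl4 and Syt1. Their blocked log2 fold changes were -2.19 ± 0.91, -1.19 ± 0.32, -0.67 ± 0.52 and -1.16 ± 0.54 (SE). The markers Rbfox3, Nefl and Nefm were at 0 in at least 1 library. Neural stem and radial glia markers summed to 418 to 975 CPM with and 629 to 1097 CPM without E-cadherin, with 7 of 8 fitted lower and 0 called. The part of either marker list in the Tubb3 difference was not tested.

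Markers of mitosis were higher with E-cadherin in every pair by CPM, as were Tubb5, Tuba1b and Tuba1c. The 10 genes summed to 2031 to 2916 CPM of library totals in Nanog+E-cadherin+ libraries and to 1061 to 1315 CPM in Nanog+E-cadherin- libraries. All 10 were higher in all 3 pairs, where 18.9% of all genes tested were. By TPM Kif11 was not, at a log2 ratio of -0.05 in the pair numbered 3. With the block 7 were called, beside 0.305% of all genes, and without it 0, as over all genes. The part of the mitosis markers in the tubulin differences was not tested. Among other cell types, astrocyte markers were fitted higher in 5 of 5 genes with 0 called, and their sums of 215 to 1312 CPM with and 139.8 to 1046 CPM without E-cadherin were lowest in the libraries numbered 1. For oligodendrocyte lineage markers the sums were 78.6 to 199.8 against 80.9 to 269.2 CPM, with Mog under 1 CPM throughout. Mesenchymal markers summed to 1745 to 6719 against 2005 to 6027 CPM, and blood and endothelial markers to 12.4 CPM or less, with Ptprc, Hbb-b1 and Pf4 under 1 CPM in every library.

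Promoter sequence is given for 3 genes, Tubb3 as the gene that was lower and Tubb5 and Tuba1b as the 2 of most similar profile among the 9. These are the 250 bases before the start site, 5′ to 3′ on the gene's strand, from RefSeq on GRCm38.p6, a later build than that of the counts. Matches on either strand to CCAAT, the box bound by NF-Y, and to TATAA, the core of the TATA box, are in capitals, as the reverse complement where the match is on the other strand. Tubb3 lies on the plus strand at chr8:123411303-123411552, Tubb5 on the minus strand at chr17:35838302-35838551 and Tuba1b on the minus strand at chr15:98934391-98934640.
Tubb3: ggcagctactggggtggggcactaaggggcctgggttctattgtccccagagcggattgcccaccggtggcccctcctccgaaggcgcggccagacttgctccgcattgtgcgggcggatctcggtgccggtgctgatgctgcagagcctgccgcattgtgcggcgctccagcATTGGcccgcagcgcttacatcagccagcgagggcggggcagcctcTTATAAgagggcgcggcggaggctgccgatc
Tubb5: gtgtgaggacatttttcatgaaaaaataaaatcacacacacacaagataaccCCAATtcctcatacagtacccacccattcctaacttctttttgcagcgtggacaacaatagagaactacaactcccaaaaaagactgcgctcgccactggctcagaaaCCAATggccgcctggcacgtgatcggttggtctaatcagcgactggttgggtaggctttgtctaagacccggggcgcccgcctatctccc
Tuba1b: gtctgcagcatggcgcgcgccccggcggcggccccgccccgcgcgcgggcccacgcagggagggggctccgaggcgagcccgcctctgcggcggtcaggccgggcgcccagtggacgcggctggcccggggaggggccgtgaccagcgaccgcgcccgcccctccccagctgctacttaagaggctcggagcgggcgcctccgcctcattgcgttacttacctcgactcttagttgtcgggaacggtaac
Tubb3 held 1 CCAAT match and 2 TATAA matches that overlap as TTATAA, Tubb5 held 2 CCAAT matches and no TATAA, and Tuba1b held neither. Of 32851 promoter windows of this length in the RefSeq table, 33.8% held CCAAT and 22.8% held TATAA, so each match is common and describes the letters only. Tubb5 and Tuba1b, the 2 nearest in profile among the 9, shared neither motif in these windows. Any bearing of the promoters on the profiles was not tested.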

How the data were processed

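Per the labels' protocols, day 7 reprogramming cultures were fixed, permeabilised, stained, sorted and decrosslinked before RNA isolation and TruSeq RNA library preparation. Per the submitters' processing notes, the tools were Bowtie and RSEM 1.2.4 on mm9. Their settings, the read length and the use of strand were not stated in the labels or headers. Per the file headers, the authors deposited an expected count, a TPM and an FPKM value per gene. The deposited expected counts, which divide multi-matching reads, were rounded to whole numbers for tests. The authors' TPM values served for order and shares, and as log2(TPM + 1) and log2(TPM + 0.1) in alternatives. The authors' FPKM values were not used.

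The main fit was edgeR 4.0.16 (R 4.3.3) on all 6 libraries: TMM, filterByExpr (minimum count 10, minimum total 15), quasi-likelihood test, Benjamini-Hochberg adjustment over all 13460 genes tested, threshold 0.05, group as only term. SE is the unshrunk log2 fold change over the root of F. Alternatives used a replicate block, other scaling, no filter, DESeq2 1.42.0, limma 3.58.1 and fewer libraries. Same-numbered libraries correlated in their deviations from group means at 0.75, 0.41 and 0.48 (others -0.62 to 0.12). The replicate numbers are those of the labels, while treating equal numbers as pairs rests on these correlations. The biological coefficient of variation was 0.499 without and 0.285 with the block. The fits were also run on simulated counts whose changes were larger than the blocked fold changes of the tubulins. That run thus does not show how the fits perform for differences of this size.

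Members, lists and tests were chosen with earlier results of these data known. The naming rule took all 9 members, measured other tubulins, per folding and modification list any called gene and the 3 of smallest blocked p, the 8 genes most like Tubb3 and 3 per other member. Of 22 folding genes 21 were in the files under the symbols searched, and of 27 modification genes 25. Stretches shared between genes were exact matches on either strand, with a GENCODE transcript matched for 20006 of 20325 genes. The counting error given covers the sampling of reads only.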

Additional observations from a re-analysis of the deposited data

How the results depend on the processing

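The number of other tubulin, folding and modification genes called was 0 in edgeR's group-only fit and 0 with the replicate block. It was also 0 in the alternatives with at least 2 libraries per group, DESeq2 and limma-voom included. The group-only fit, limma-voom and each group-only fit without 1 library called 0 of all genes, so their 0 for these lists was fixed. With the replicate block the log2 fold change of Tubb3 was -1.27 and the mean paired log2 difference of the alpha to beta ratio 0.061. On all 6 libraries, the block changed no other call than that of Tubb3 among these lists and the 9 members. Over all genes edgeR called 0 with group only, 41 with the block and 1 without a filter, and DESeq2 called 17. Blocked fits on 2 pairs called Tubb3 and further members. Without the pair numbered 1 these were Tubb5 and Tuba1c, among 182 genes called of 13566. Without the pair numbered 2 it was Tuba1c, among 140 of 13575. Without the pair numbered 3 these were Tubb5, Tuba1b, Tuba1c and Tuba4a, among 449 of 13585. As the choice of members used this contrast, these calls are a description. Leaving out 1 library at a time with group only, which unbalances the replicate numbers, gave log2 fold changes of -2.55 to -0.09 for Tubb3 (the former without Nanog+E-cadherin+ replicate 1, the latter without the Nanog+E-cadherin- library of that number), 0.31 to 1.05 for Tubb5, 0.30 to 0.59 for Tubb6, 0.23 to 0.91 for Tuba1b, 0.63 to 1.34 for Tuba1c and 0.27 to 0.95 for Tuba4a. Tubb2a (-0.23 to 0.12), Tubb2b (-0.61 to 0.26) and Tuba1a (-0.35 to 0.23) crossed 0. The difference in Tubb3 share of beta TPM ran from -8.32 to -3.24 percentage points and that of the log2 alpha to beta ratio from 0.0086 to 0.106. Without Nanog+E-cadherin- replicates 2 and 3 together, Tubb5 stood at -0.02, Tuba1b at -0.01, Tubb2a at -0.39, Tuba1a at -0.59 and Tuba1c at 0.34. Tubb2b stood at -0.94 there, from -0.26 on all 6 libraries, Tubb6 at 0.25 and Tuba4a at 0.49. This setting leaves 1 library in that group, assumed to vary like the others, and sets it against all 3 replicate numbers. The cause of these shifts was not tested. Depth limits the tubulins below the filter and Tube1, which had an expected count of 6 in Nanog+E-cadherin- replicate 3.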
